A study of Homo sapiens with 6 samples.

Results

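The 42 autophagy and lysosome genes described here were picked by symbol, through the gencode release 44 names of their Ensembl identifiers, and all 42 were found among the 60676 genes of the deposited tables, of which 35869 had reads. They cover the steps from the kinases that start an autophagosome to the enzymes and membrane proteins of the lysosome. The cells were HT29, a human colorectal adenocarcinoma line labelled wild type in every sample, and poly(A) RNA was sequenced after 48 h in control medium (untreated), in medium without histidine (Hdepl) or in medium without tryptophan (Wdepl), with 2 libraries each. No other drug or genetic change is named for any group. Per the study's methods, the histidine-free medium was made on an RPMI base and the tryptophan-free medium on a DMEM F-12 base, both with dialyzed serum, and the base of the control medium of this experiment is not given in the sources used here, so depletion and base medium cannot be told apart. The labels do not say whether replicates were separate cultures, so p-values measure only the spread between these libraries, which may be technical.

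Autophagy wraps cytoplasm, damaged organelles or protein aggregates in a double membrane, the autophagosome, which fuses with the lysosome, where acid hydrolases digest the content and return amino acids. When amino acids are plentiful, the kinase complex mTORC1 on the lysosome surface restrains both the initiating kinases and the MiT/TFE transcription factors TFEB, TFE3 and MITF. These factors are known to bind a DNA element called CLEAR, built around the letters CACGTG, at many lysosome and autophagy genes. RNA levels are one layer of this system, and neither autophagic flux nor protein was measured in these files.

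More of these genes were higher than lower after either depletion. They were chosen with earlier results of these data known, so their shares beside those of all genes are a description and no independent finding. After histidine depletion 40 of the 42 were tested (ULK2 and GABARAP had a mean under 10 normalized counts), and 28 of them (70%) rose while 5 (12.5%) fell. A call here means a Benjamini-Hochberg adjusted p under 0.05 from limma, fitted to log2(normalized count + 1). In bulk RNA, a change in every cell and a change in some of them cannot be told apart. Of all 18288 genes tested, 39.1% were higher and 38.2% lower. The median log2 fold change was 0.62 over the tested members and 0.010 over all genes. Changes of at least 1 on the log2 scale were called higher in 15 members (37.5%) and lower in 0, beside 16.4% and 16.1% of all genes. MITF is among the 28 and the 15 but passed the filter on low values only through its Hdepl libraries, and without it 27 of 39 were higher, 14 of them by at least 1, with a median of 0.57. The count of 5 lower members was sensitive to single libraries, with 8 when the first untreated library was left out and 3 when the first Hdepl library was left out.

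After tryptophan depletion 41 of the 42 were tested (all but MITF), and 30 (73.2%) rose while 2 (4.88%) fell. Over all 17960 genes tested, 36.1% were higher and 34.8% lower. The median log2 fold change of the members was 0.42, against 0.013 over all genes. GABARAP is among the 41 but passed the filter on low values only through its Wdepl libraries. Without it 30 of 40 (75%) were higher, with a median of 0.40. Here 5 members (12.2%) rose by at least 1 and 0 fell by as much, beside 10.0% and 10.4% of all genes. Those 5 were WIPI1, GABARAPL1, SQSTM1, CALCOCO2 and ATG4A. Both comparisons use the same untreated libraries and are not independent of each other.

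The difference between the depletions was tested directly between the Hdepl and Wdepl libraries, scaled together. Among 41 members tested (all but ULK2), 23 (56.1%) were higher after histidine depletion and 13 (31.7%) were higher after tryptophan depletion. Of all 18276 genes tested, 39.9% were higher after histidine depletion and 38.4% lower. At a log2 difference of at least 1, 10 members (24.4%) were higher after histidine depletion and 3 were lower (WIPI1, CALCOCO2 and TFEB), where all genes gave 16.4% and 15.7%. MITF again passed the filter only through the Hdepl libraries, and without it 22 of 40 were higher after histidine depletion, 9 of them by at least 1. The plot of log2 fold changes by role shows both comparisons for each member.

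**Figure D1:**
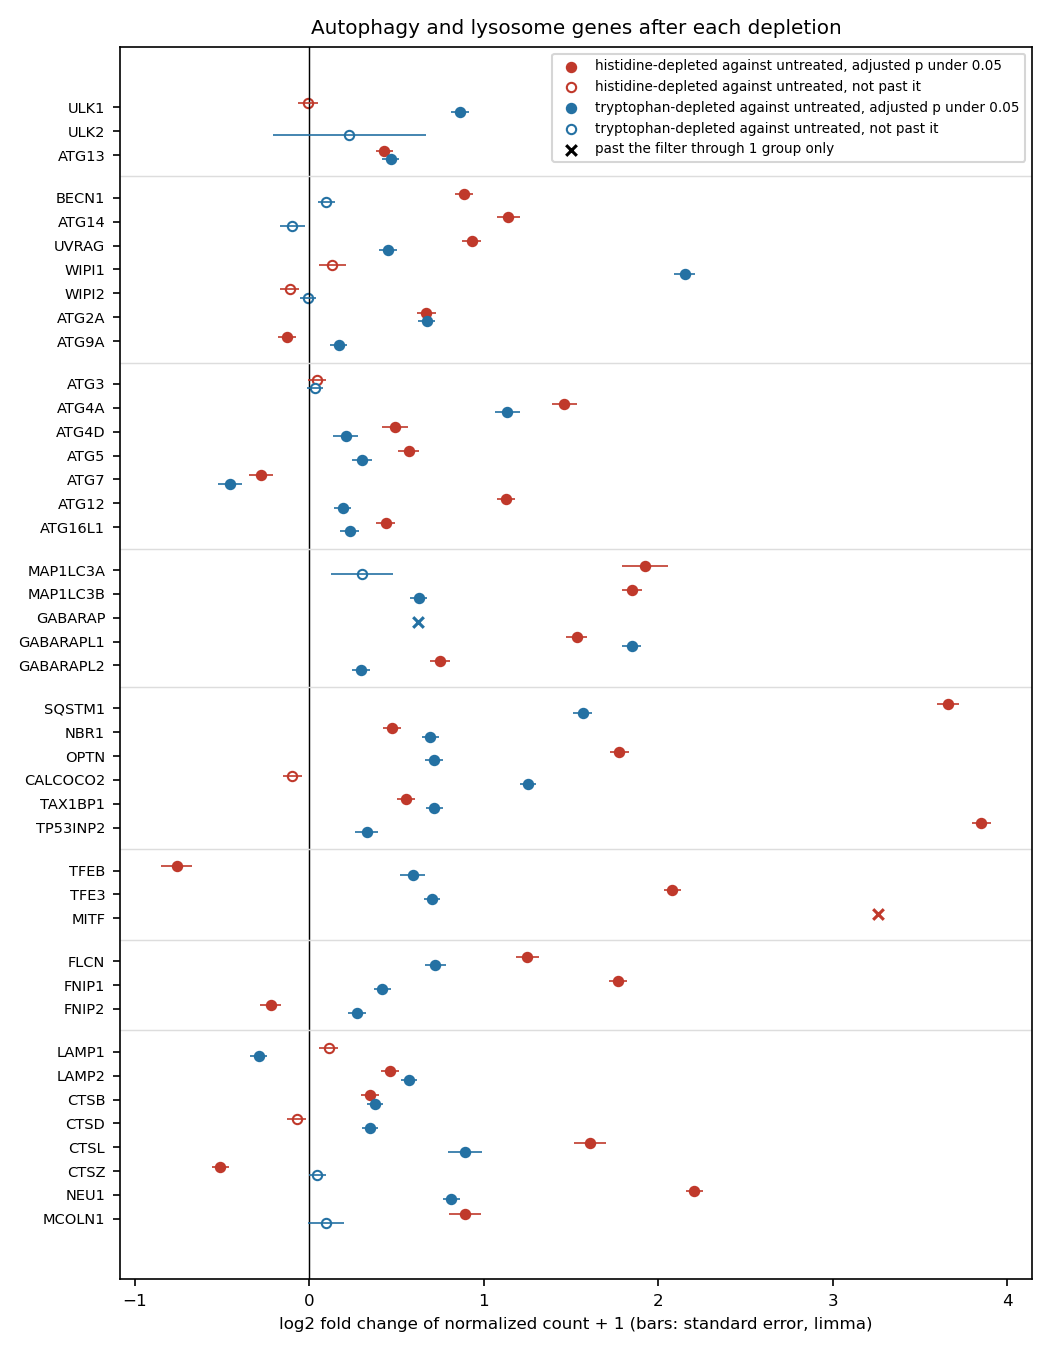
Log2 fold change of each autophagy or lysosome gene against untreated cells (x axis, log2 of normalized count + 1) for histidine-depleted (red) and tryptophan-depleted (blue) cells, in role order from the initiating kinases at the top to the lysosomal proteins at the bottom; bars are limma's standard errors filled points have an adjusted p under 0.05, and crosses mark MITF (red) and GABARAP (blue), which passed the filter on low values through 1 group only. SQSTM1 and TP53INP2 lie farthest to the right after histidine depletion (3.66 and 3.85) and WIPI1 after tryptophan depletion (2.15).

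Of the starting kinases and their partner, ATG13 rose in both comparisons with untreated cells and ULK1 without tryptophan. ULK1, the kinase that phosphorylates the first autophagy proteins, read 2166 and 2359 normalized counts in the untreated libraries and 2210 and 2284 after histidine depletion, ranges that overlap (log2 fold change -0.0088 with an SE of 0.057, limma adjusted p = 0.895). After tryptophan depletion it read 4047 and 4109, above both untreated libraries at 2151 and 2334 in that table, and rose 1.82-fold (adjusted p = 2.78e-35). The depletions differed in ULK1 by -0.89 (95% confidence interval -0.97 to -0.81). ATG13, the adaptor that holds the kinase complex together, rose 1.35-fold without histidine and 1.38-fold without tryptophan, and its direct difference was -0.052 (interval -0.11 to 0.0041, adjusted p = 0.0817). That difference was called by edgeR, under quantile normalization and without the second Hdepl library (-0.22 to -0.063). ULK2 was close to silent, with 4 to 19 reads in each of the 6 libraries.

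At the next step, nucleation of the membrane and its supply with lipid, the depletions differed in both directions, with WIPI1 higher without tryptophan and ATG14, BECN1 and UVRAG higher without histidine. WIPI1 binds the lipid made at the growing membrane and lies at chr17:68420948-68457513 on the minus strand (GRCh38). It read 546 and 564 in the untreated libraries and 2464 and 2477 without tryptophan, a 4.45-fold rise (log2 fold change 2.15 with an SE of 0.061, limma adjusted p = 2.73e-69). Without histidine it read 613 and 614 against 550 and 570, which did not overlap but did not pass the test (log2 fold change 0.13, adjusted p = 0.127), though it was called at 0.36 under quantile normalization. WIPI1 was 4.10-fold higher in tryptophan-depleted than in histidine-depleted cells (direct log2 difference -2.04, interval -2.14 to -1.94). Its relative WIPI2 passed the test in neither comparison with untreated cells (log2 fold change -0.11 without histidine and -0.0084 without tryptophan), and in the direct comparison it was lower without histidine (-0.12, interval -0.20 to -0.039, adjusted p = 0.0110). That call was lost without the variance trend and without the first Hdepl or the first Wdepl library. In 5 alternative settings, among them edgeR and the fit on all 6 libraries, WIPI2 was called lower without histidine. Exons on the other strand cover 28.1% of the exonic bases of WIPI1 (ARSG and ENSG00000267009) and 20.8% of those of ATG14 (FBXO34), and whether counting used strand is not stated.

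Among the lipid kinase subunits, ATG14, which steers that kinase complex to autophagosomes, read 1533 and 1557 without histidine against 679 and 723 in untreated cells and rose 2.20-fold (adjusted p = 6.87e-14). In the tryptophan table ATG14 read 619 and 682 after depletion against 675 and 716, overlapping ranges (log2 fold change -0.097, adjusted p = 0.234). BECN1, the scaffold of the complex, rose 1.85-fold without histidine and gave a log2 fold change of 0.096 without tryptophan (adjusted p = 0.0729). It was called higher there by edgeR, under quantile normalization, in the fit on all 6 libraries and without the second untreated library (0.089 to 0.15). UVRAG, the subunit of an alternative form of the complex, rose in both, 1.91-fold and 1.37-fold. ATG2A, a lipid transfer protein, rose 1.59-fold in each comparison, and its direct difference was -0.019 (interval -0.087 to 0.048), though it was called at -0.12 under quantile normalization. ATG9A, the membrane protein carried in by vesicles, fell by 0.13 without histidine (adjusted p = 0.0306) and rose by 0.17 without tryptophan (adjusted p = 0.00176). The fall of ATG9A lost its call without the filter on low values, without the variance trend and when either Hdepl library was left out, and its rise without the trend and without the first Wdepl library. Of its exonic bases 38.8% are shared on the same strand with a gene model known only as ENSG00000284820, which had 3 to 18 reads per library.

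Of the 7 genes of the conjugation machinery, which attaches ATG8 proteins to lipid, 5 rose and 1 fell in each comparison with untreated cells, where 39.1% of all genes tested were higher and 38.2% lower without histidine, and 36.1% and 34.8% without tryptophan. ATG4A, a protease that trims ATG8 proteins, read 1315 and 1259 without histidine against 462 and 471 in untreated cells, a 2.75-fold rise (adjusted p = 2.49e-15). After tryptophan depletion ATG4A read 997 and 1038 against 459 and 467, a 2.20-fold rise (adjusted p = 1.82e-31), so depleted and untreated libraries did not overlap in either table. ATG12, the ubiquitin-like protein joined to ATG5, read 6273 and 5933 without histidine against 2843 and 2746 and rose 2.18-fold (adjusted p = 8.16e-16). Without tryptophan ATG12 read 3186 and 3142.5 against 2824 and 2718, without overlap, a 1.14-fold rise, and the direct difference was 0.92 (interval 0.84 to 0.99). ATG5, ATG16L1 and ATG4D rose in both comparisons, with log2 fold changes from 0.44 to 0.57 without histidine and from 0.21 to 0.30 without tryptophan. The call of ATG4D without tryptophan was lost in 5 alternative settings, DESeq2 among them. ATG7, the enzyme that activates both ATG12 and ATG8 proteins, fell by 0.28 without histidine and by 0.45 without tryptophan (adjusted p = 0.000976 and 1.46e-09). Under quantile normalization the fall of ATG7 without histidine was 0.11 and no longer passed. ATG3, the enzyme that transfers ATG8 proteins to lipid, passed in no comparison, with log2 fold changes of 0.046 and 0.033 against untreated cells. Under quantile normalization ATG3 was called lower without histidine, both against untreated cells (-0.089, adjusted p = 0.0343) and in the direct comparison (-0.095).

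In the ATG8 family, whose lipid-bound members coat the autophagosome, all 4 members tested after histidine depletion rose, with a median log2 fold change of 1.69, and 3 of 5 rose after tryptophan depletion. All genes tested gave 39.1% higher and 38.2% lower without histidine and 36.1% and 34.8% without tryptophan. MAP1LC3B, the most studied LC3 protein, is encoded at chr16:87383953-87404779 on the plus strand. It read 4728 and 5403 in untreated cells and 18381 and 18064 without histidine, a 3.60-fold rise (adjusted p = 3.18e-19). Without tryptophan it read 7565 and 7912 against 4696 and 5347 and rose 1.54-fold (adjusted p = 5.61e-25). MAP1LC3B lay above the untreated libraries in both tables and was 2.31-fold higher without histidine than without tryptophan (interval of the log2 difference 1.15 to 1.27). An expressed near-identical copy, MAP1LC3B2, moved with it (log2 fold change 1.86 without histidine), and how reads that fit both genes were counted is not given in the sources used here.

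MAP1LC3A, a second LC3 gene, was low, at 77.9 and 86.0 normalized counts in untreated cells, and read 301 and 326 without histidine, a 3.79-fold rise (adjusted p = 2.51e-12). After tryptophan depletion MAP1LC3A read 91.5 and 109.7 against 77.4 and 85.1, a log2 fold change of 0.30 with an SE of 0.18 that did not pass (adjusted p = 0.117). GABARAPL1 turned the order around. This gene of the GABARAP branch lies at chr12:10212458-10223128 on the plus strand. It read 979 and 1067 in untreated cells and 3000 and 2918 without histidine, a 2.89-fold rise (adjusted p = 3.27e-17). Without tryptophan it read 3572 and 3728 against 972 and 1056, a 3.60-fold rise (adjusted p = 2.49e-67), and this level was 1.26-fold above that of histidine-depleted cells (direct log2 difference -0.33, interval -0.41 to -0.26). GABARAPL2, another gene of that branch, read 5011 and 4967 without histidine against 2804 and 3147 and rose 1.68-fold. Without tryptophan GABARAPL2 read 3615 and 3619 against 2785 and 3114 and rose 1.23-fold.

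GABARAP itself was listed near the floor. Its values were 16.3 and 6.08 without histidine, 9.74 and 7.91 in the untreated libraries of the same table, and 13.5 and 14.4 without tryptophan. The histidine-depleted and untreated ranges overlap, and GABARAP was not tested there. Without tryptophan it passed the filter on low values only through the Wdepl libraries. Its log2 fold change there (0.62, SE 0.44) did not pass except when the variance trend was dropped, and nothing is read from either outcome. Its direct difference was called without the first Hdepl library alone (-1.10). The annotation used here overlaps 35.4% of its exonic bases with ENSG00000262526 on the same strand, a gene model with 0 reads in every library, and the part of that overlap in the low count was not tested.

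Without histidine, SQSTM1 and TP53INP2 had the largest rises of the cargo group. SQSTM1, also called p62, binds ubiquitin-tagged cargo and ATG8 proteins, and its gene lies at chr5:179806398-179838078 on the plus strand. It read 19227 and 20447 in untreated cells and 249872 and 251341 without histidine, a 12.6-fold rise (log2 fold change 3.66 with an SE of 0.063, limma adjusted p = 9.92e-24). Tryptophan depletion gave SQSTM1 values of 57714 and 58681 against 19098 and 20235, a 2.96-fold rise (adjusted p = 6.57e-60). The groups were far apart in both tables, and the depletions differed by 2.08 on the log2 scale (interval 2.03 to 2.13). SQSTM1 took 0.0383% and 0.0393% of all reads in the untreated libraries, 0.430% and 0.431% without histidine, and 0.109% and 0.110% without tryptophan. It was the gene with the 8th most reads in each Hdepl library and held 50.8% and 51.0% of the reads of the 42 genes there, against 11.8% and 11.9% in untreated cells. The exons of MGAT4B and MRNIP on the other strand cover 22.4% of its exonic bases, and whether counting used strand is not stated.

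TP53INP2, a nuclear protein that moves to the autophagosome and binds ATG8 proteins, lies at chr20:34704339-34713439 on the plus strand. It read 788 and 736 in untreated cells and 11099 and 10890 without histidine, a 14.4-fold rise and the largest among the members tested in that comparison (adjusted p = 2.20e-25). Tryptophan depletion gave 958 and 937 against 782 and 729, a rise of 1.25-fold (adjusted p = 6.88e-06). Depleted libraries lay above untreated ones in both tables, yet histidine depletion left 11.4 times the level of tryptophan depletion (log2 difference 3.51, interval 3.43 to 3.58).

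The other receptors did not share a single pattern. OPTN, a receptor for damaged mitochondria and bacteria, read 6815 and 6711 without histidine against 1889 and 2065 and rose 3.42-fold (adjusted p = 3.00e-19). Without tryptophan OPTN read 3254 and 3181 against 1876 and 2044 and rose 1.64-fold. CALCOCO2, also called NDP52, was instead higher without tryptophan than without histidine. It read 8577 and 8905 without tryptophan against 3572 and 3766, a 2.38-fold rise (adjusted p = 1.21e-54). Without histidine CALCOCO2 read 3352 and 3561 against 3596 and 3806, just below the untreated libraries, and did not pass (log2 fold change -0.099, adjusted p = 0.0968). The direct difference in CALCOCO2 was -1.37 (interval -1.45 to -1.29). Without histidine it was called lower by edgeR, under quantile normalization, in the fit on all 6 libraries and without the first untreated library. NBR1, an older relative of SQSTM1, read 14094 and 14391 without histidine against 9817 and 10694 (1.39-fold), and 16154 and 16701 without tryptophan against 9751 and 10583 (1.62-fold). TAX1BP1, a receptor related to CALCOCO2, read 12070 and 11684 without histidine against 7805 and 8416 (1.47-fold), and 13204 and 13200 without tryptophan against 7753 and 8329 (1.64-fold). NBR1 and TAX1BP1 rose in both comparisons and were higher without tryptophan than without histidine, by 0.23 and 0.18 on the log2 scale (adjusted p = 5.70e-06 and 5.25e-05).

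**Figure D2:**
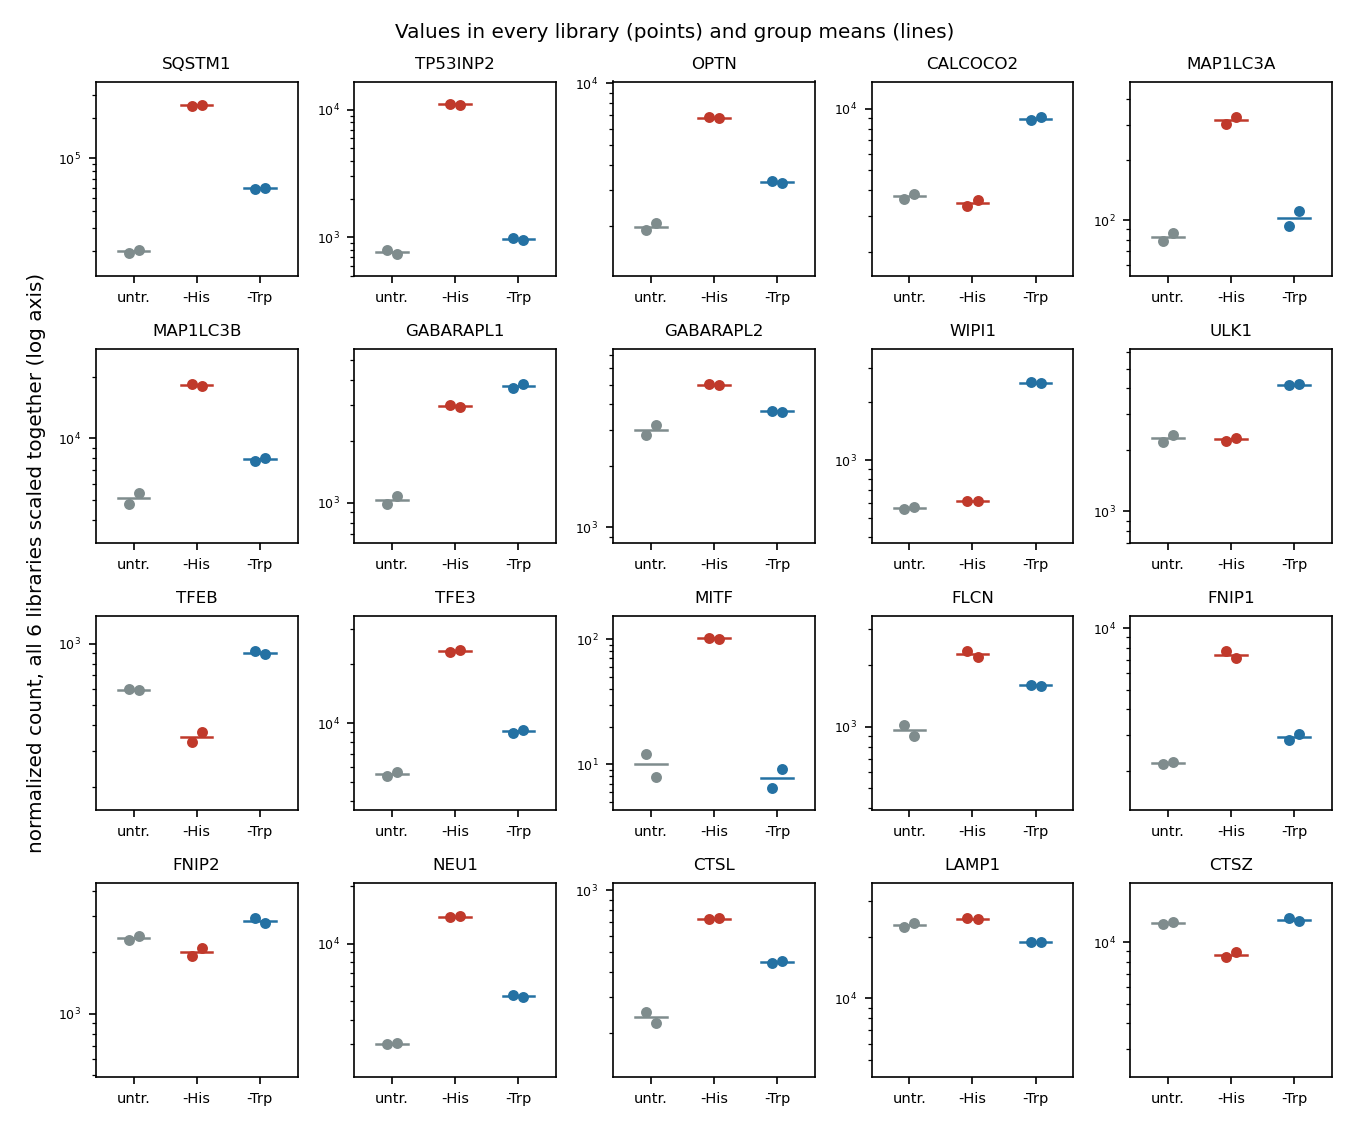
Normalized counts of 20 members in each of the 6 libraries, all scaled together (y axes are logarithmic and differ between panels); points are libraries and lines are group means for untreated, histidine-depleted (-His) and tryptophan-depleted (-Trp) cells. TP53INP2 and SQSTM1 rise most after histidine depletion. WIPI1, ULK1 and CALCOCO2 rise after tryptophan depletion and did not pass the main test after histidine depletion, and TFEB moves in opposite directions.

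The MiT/TFE transcription factors split by gene. TFE3 lies at chrX:49028726-49043410 on the minus strand and was the most abundant of the group. It read 5345 and 5640 in untreated cells and 23072 and 23396 without histidine, a 4.23-fold rise (adjusted p = 4.35e-21). Without tryptophan TFE3 read 8658 and 9082 against 5309 and 5581 and rose 1.63-fold (adjusted p = 6.90e-30), so that the depletions differed by 1.36 (interval 1.30 to 1.42). TFEB, at chr6:41683978-41736259 on the minus strand, moved in opposite directions. It read 592 and 590 in untreated cells and 330 and 368 without histidine, a fall of 1.69-fold (log2 fold change -0.76 with an SE of 0.088, adjusted p = 2.96e-08). Without tryptophan it read 893 and 874 against 588 and 584 and rose 1.51-fold (adjusted p = 2.59e-13). None of the TFEB ranges overlap, and the depletions differed by -1.37 (interval -1.53 to -1.21).

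MITF, best known from pigment cells, lies at chr3:69739456-69968336 on the plus strand and was near the floor in untreated cells, at 11.9 and 7.91. It read 103 and 100.3 without histidine, and 6.24 and 8.99 without tryptophan, where it was not tested. Since MITF passed the filter on low values only through the Hdepl libraries, it had to differ there, and nothing is read from its call. At 101.9 counts on the joint scale in histidine-depleted cells it stayed the lowest of the 3 factors.

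The folliculin complex acts with the Rag GTPases to hold MiT/TFE factors in check when amino acids are present. FLCN, its founding subunit, read 2340 and 2197 without histidine against 1016 and 896 and rose 2.38-fold (adjusted p = 1.16e-14). Without tryptophan FLCN read 1560 and 1563 against 1009 and 887 and rose 1.65-fold. FNIP1, one of its partner subunits, read 7681 and 7112 without histidine against 2140 and 2200 and rose 3.41-fold (adjusted p = 2.21e-19). Without tryptophan FNIP1 read 2771 and 2985 against 2126 and 2177 and rose 1.34-fold. FNIP2, the alternative partner, fell by 0.22 without histidine (adjusted p = 0.00130) and rose by 0.27 without tryptophan (adjusted p = 9.91e-07), so that the partners were called in opposite directions without histidine and in the same direction without tryptophan. The fall of FNIP2 lost its call without the variance trend and without the first Hdepl library.

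Of the 8 lysosomal proteins, 5 rose and 1 fell in each comparison with untreated cells (all genes tested, 39.1% higher and 38.2% lower without histidine, 36.1% and 34.8% without tryptophan). NEU1, the lysosomal sialidase, lies at chr6:31857659-31862905 on the minus strand. It read 2985 and 3003 in untreated cells and 13782 and 13833 without histidine, a 4.61-fold rise (adjusted p = 8.61e-22). Without tryptophan NEU1 read 5259 and 5177 against 2965 and 2972 and rose 1.76-fold (adjusted p = 1.56e-34). The direct difference in NEU1 was 1.37 (interval 1.31 to 1.44). CTSL, a cysteine protease, read 726 and 726 without histidine against 252 and 224 and rose 3.04-fold (adjusted p = 5.23e-14). Without tryptophan CTSL read 432 and 443 against 250.4 and 222 and rose 1.85-fold. It has 6 annotated pseudogenes that could share its reads.

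The remaining lysosomal genes changed by less than 2-fold. MCOLN1, the calcium channel of the lysosomal membrane, rose 1.86-fold without histidine and gave a log2 fold change of 0.096 without tryptophan (adjusted p = 0.414). CTSB, another cysteine protease, rose 1.27-fold and 1.30-fold, and LAMP2, a membrane glycoprotein, 1.38-fold and 1.49-fold. The direct difference in CTSB did not pass but was called by edgeR, under quantile normalization and without the second Hdepl library (-0.19 to -0.069). CTSD, the aspartic protease, rose 1.27-fold without tryptophan and did not pass without histidine (log2 fold change -0.073, adjusted p = 0.219), and its direct difference was -0.44 (interval -0.52 to -0.36). Without histidine CTSD was called lower under quantile normalization (-0.25) and without the first untreated library (-0.13). CTSZ, a carboxypeptidase, fell by 0.51 without histidine (adjusted p = 1.63e-09) and stayed at 0.045 without tryptophan (adjusted p = 0.392). LAMP1, the most abundant lysosomal membrane glycoprotein among the members, gave 0.11 without histidine (adjusted p = 0.0621) and fell by 0.29 without tryptophan (adjusted p = 6.81e-08). Without histidine the sign of LAMP1 depended on the scaling, with a call of -0.13 under quantile normalization and calls above 0 in 5 other settings, edgeR and DESeq2 among them. Gene models on the same strand share 27.3% of the exonic bases of CTSD. They are ENSG00000229512, with 8 to 31 reads per library, and ENSG00000250644, with 22 to 52. Exons of PRADX on the other strand cover 23.4% of the exonic bases of CTSD. Exons of NELFCD on the other strand cover 31.7% of the exonic bases of CTSZ.

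**Figure D3:**
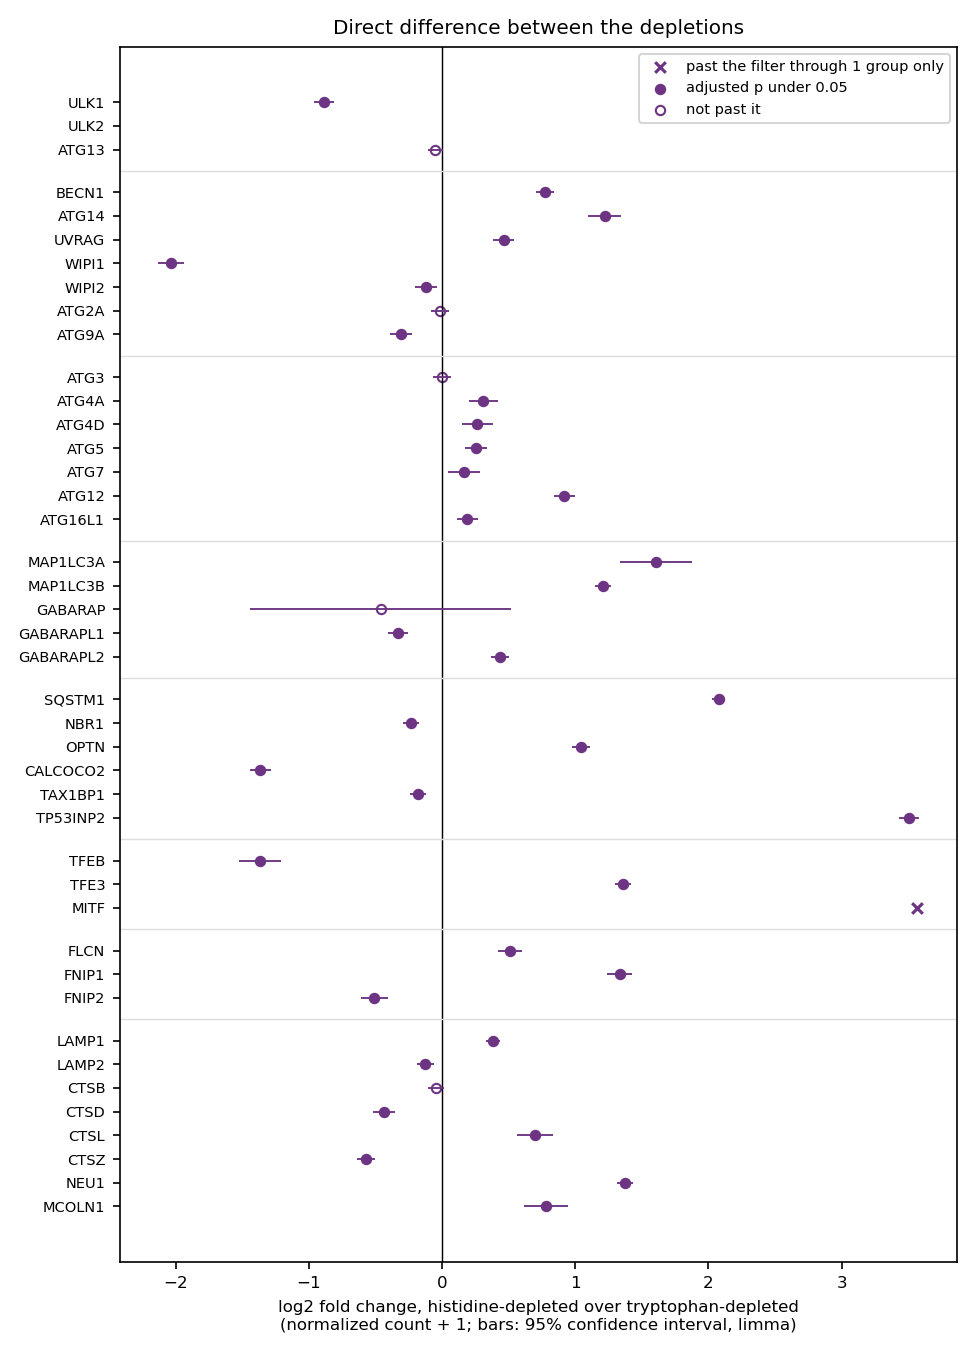
Log2 difference between histidine-depleted and tryptophan-depleted cells for each member tested (x axis, histidine over tryptophan, log2 of normalized count + 1), with 95% confidence intervals from limma and filled points for an adjusted p under 0.05. A cross with no interval marks MITF, which passed the filter on low values only through the Hdepl libraries. Among the others TP53INP2 lies farthest right (3.51) and WIPI1 farthest left (-2.04), and ATG13, ATG2A, ATG3, GABARAP and CTSB did not pass.

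Promoter sequence was read for these genes because several lysosomal members were called higher after depletion and the CLEAR element has known letters. RefSeq windows on GRCh38.p14, from 250 bases before to 50 after a transcript start, were matched by symbol for 37 of the 42 members, as 50 windows. An E-box (CACGTG, the same on both strands) was found in windows of 7 members (ATG14, ATG3, FNIP1, LAMP1, CTSD, NEU1 and MCOLN1), which is 14.0% of the members' windows and 7.26% of all 35116 windows. The longer CLEAR core TCACGTGA, which contains the E-box, was found in ATG3, LAMP1 and MCOLN1 (6% of the members' windows and 0.980% of all). The amino acid response letters TGATGNAA, searched on both strands, were found in 0 of the members' windows and in 3.62% of all. The antioxidant response letters TGACNNNGC, searched on both strands, were found in MAP1LC3B, CALCOCO2, FNIP2, LAMP1, CTSD, CTSL and CTSZ (14.0% of the members' windows and 13.3% of all), and 1 match in LAMP1 overlaps an E-box. Among the 7 genes with an E-box, the log2 fold change without histidine ran from 2.20 (NEU1), 1.77 (FNIP1), 1.14 (ATG14) and 0.89 (MCOLN1) to values that did not pass in LAMP1, ATG3 and CTSD. Without tryptophan NEU1 (0.81), FNIP1 (0.42) and CTSD (0.35) rose and LAMP1 fell (-0.29), while ATG14, ATG3 and MCOLN1 did not pass. Of all members tested, 70% were higher without histidine and 73.2% without tryptophan. A match is a description of letters and not a measured site.

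The stretches that follow run from 250 bases before to 30 bases after the start of a transcript, 5′ to 3′ on the strand of the gene, for 4 lysosome-linked genes with matches that differ in response and for the pair with the largest rises, whose windows hold no such match. Capitals mark the E-box and the CLEAR core. NEU1 is chr6:31862792-31863071 (minus), FNIP1 chr5:131796988-131797267 (minus), MCOLN1 chr19:7522374-7522653 (plus), LAMP1 chr13:113296989-113297268 (plus), SQSTM1 chr5:179820655-179820934 (plus, at the start of its canonical transcript) and TP53INP2 chr20:34704094-34704373 (plus, the window nearest the start of the gene).
NEU1: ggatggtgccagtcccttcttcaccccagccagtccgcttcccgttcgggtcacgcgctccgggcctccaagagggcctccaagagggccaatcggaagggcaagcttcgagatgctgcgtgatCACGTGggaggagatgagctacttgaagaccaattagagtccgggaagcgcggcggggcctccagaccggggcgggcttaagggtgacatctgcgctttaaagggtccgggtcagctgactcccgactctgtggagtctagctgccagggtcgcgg
FNIP1: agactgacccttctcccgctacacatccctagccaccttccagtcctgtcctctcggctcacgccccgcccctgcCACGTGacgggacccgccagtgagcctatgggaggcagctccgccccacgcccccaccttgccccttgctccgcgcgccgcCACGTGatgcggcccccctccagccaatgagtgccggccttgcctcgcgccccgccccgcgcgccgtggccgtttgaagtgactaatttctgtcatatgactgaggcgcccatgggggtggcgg
MCOLN1: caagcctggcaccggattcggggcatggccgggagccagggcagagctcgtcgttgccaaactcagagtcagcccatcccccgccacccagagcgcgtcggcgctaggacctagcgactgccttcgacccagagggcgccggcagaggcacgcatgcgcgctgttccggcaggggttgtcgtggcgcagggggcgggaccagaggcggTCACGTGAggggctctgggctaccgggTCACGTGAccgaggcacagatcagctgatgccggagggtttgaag
LAMP1: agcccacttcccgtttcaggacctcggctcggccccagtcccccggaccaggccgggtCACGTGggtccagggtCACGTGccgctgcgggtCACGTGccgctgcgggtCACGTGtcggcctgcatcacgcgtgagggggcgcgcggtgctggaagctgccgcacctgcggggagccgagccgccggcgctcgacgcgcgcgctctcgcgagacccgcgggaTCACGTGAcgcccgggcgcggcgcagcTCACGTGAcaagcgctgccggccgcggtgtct
SQSTM1: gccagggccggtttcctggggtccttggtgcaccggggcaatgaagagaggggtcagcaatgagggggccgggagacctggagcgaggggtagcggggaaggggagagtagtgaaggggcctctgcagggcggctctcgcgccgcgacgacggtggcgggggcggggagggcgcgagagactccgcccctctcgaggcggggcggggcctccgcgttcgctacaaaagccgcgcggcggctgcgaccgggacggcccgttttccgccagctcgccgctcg
TP53INP2: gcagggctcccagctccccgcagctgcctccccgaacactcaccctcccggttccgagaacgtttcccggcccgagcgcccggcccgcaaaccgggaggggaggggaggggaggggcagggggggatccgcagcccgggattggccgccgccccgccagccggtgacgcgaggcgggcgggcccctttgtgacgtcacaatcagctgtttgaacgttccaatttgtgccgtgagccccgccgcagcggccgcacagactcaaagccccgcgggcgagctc
NEU1 has a single E-box, from base -126 to -121, and FNIP1 has a pair starting at -175 and -94. MCOLN1 has a pair of CLEAR cores, from -42 to -35 and from -15 to -8. LAMP1 has a row of E-boxes starting at -192, -176, -159 and -142 and CLEAR cores starting at -29 and -2, and it was the gene among these 4 with the smallest change without histidine.

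Levels between genes were compared per kb of canonical transcript, on the scale of all 6 libraries together. Reads were counted on all exons of a gene, so ranks between genes can depend on this divisor, which was not tested. CTSZ has 19384 exonic bases and a canonical transcript of 1502, while TP53INP2 has 4179 and 4127. In untreated cells LAMP1 (8488 ± 282 normalized counts per kb, SD, n = 2), CTSZ (8271 ± 108) and SQSTM1 (7043 ± 287) were highest, and GABARAP (6.75 ± 1.01), MITF (2.08 ± 0.60) and ULK2 (1.21 ± 0.32) lowest. The untreated ranges of LAMP1 and CTSZ overlap, as do those of 14 of the 41 neighbouring pairs in this order. SQSTM1 was first in both depletions, at 88427.5 ± 643 without histidine and 20950 ± 122 without tryptophan. TP53INP2 went from rank 34 in untreated cells to 13 without histidine and was 35 without tryptophan. WIPI1 went from rank 30 to 17 without tryptophan and was 35 without histidine. The share of all reads that fell on the 42 genes was 0.324% and 0.332% in untreated cells, 0.845% in each Hdepl library and 0.474% and 0.475% in the Wdepl libraries.

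**Figure D4:**
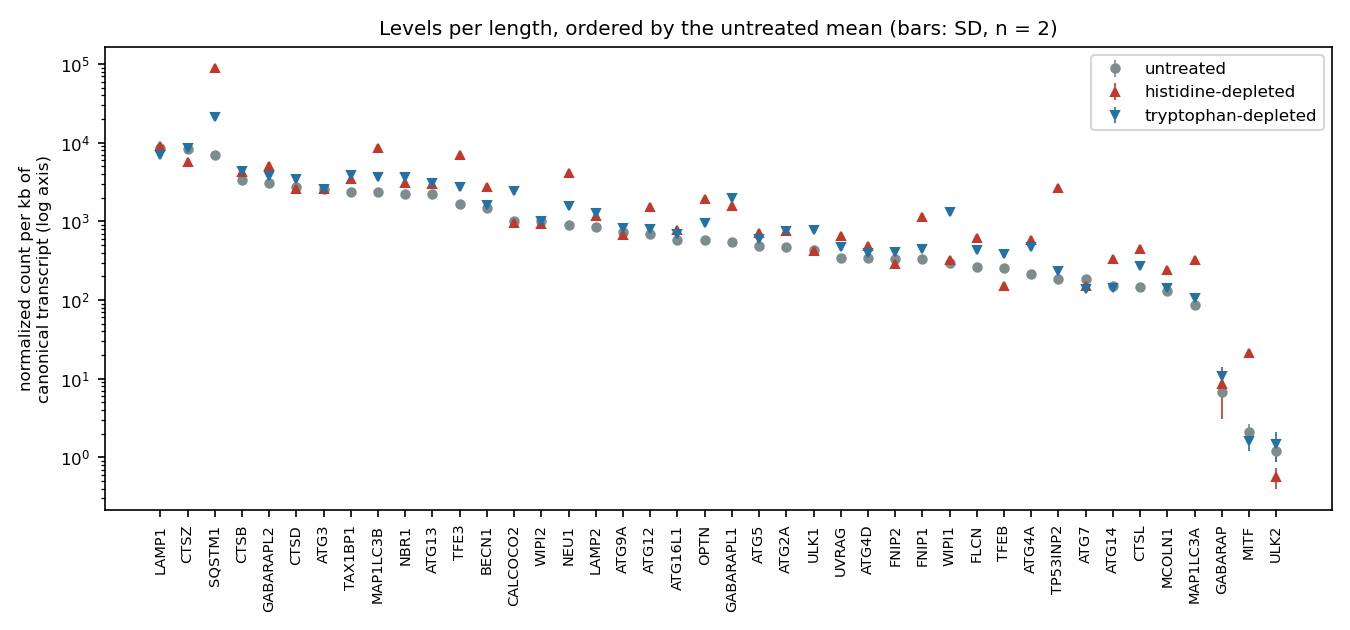
Normalized count per kb of canonical transcript (log axis) for the 42 genes, ordered by their untreated mean; points are means of 2 libraries and bars are SD. SQSTM1 stands above the rest in histidine-depleted cells, and GABARAP, MITF and ULK2 lie far below the other genes in untreated cells.

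The members' codons for the missing amino acids lay close to those of other genes. Histidine codons made up a median of 2.505% of the coding sequence of the members (0.714% to 4.05%) and 2.45% of that of 13150 tested coding genes (quartiles 1.81% and 3.16%). Tryptophan codons made up 0.98% (0% to 3.96%) and 1.08%. These shares are descriptions, and no test was made of them.

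Outside the 42 genes, 121 further genes of the pathway were read from 5 lists, also chosen with earlier results known. After histidine depletion 68 of 117 tested were higher (58.1%) and 27 lower (23.1%), and after tryptophan depletion 60 of 114 were higher (52.6%) and 39 lower (34.2%), beside 39.1% and 38.2% of all genes tested in the former comparison and 36.1% and 34.8% in the latter. Subunits of the V-ATPase, the proton pump that acidifies the lysosome, were higher in 17 of 21 and lower in 2 without histidine, with a median log2 fold change of 0.93, and higher in 12 of 19 and lower in 6 without tryptophan, with a median of 0.30. ATP6V1B2, a subunit of its catalytic part, read 14588 and 14092 without histidine against 2523 and 2641 (5.55-fold), and rose 1.51-fold without tryptophan. ATP6V0E2 fell by 1.03 on the log2 scale without tryptophan. Other autophagy genes were higher in 22 of 34 and lower in 6 without histidine, and higher in 21 of 34 and lower in 9 without tryptophan, with ZFYVE1, a marker of the membrane where autophagosomes form, at 2.09 and BNIP3, a mitophagy receptor, at 1.98 on the log2 scale without histidine. RB1CC1, the scaffold of the ULK kinases, rose by 0.94 without tryptophan and gave 0.11 without histidine (adjusted p = 0.0619). ATG16L2 and VAMP8 fell without tryptophan, by 1.37 and 0.86.

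The other lysosomal hydrolases showed no common direction. Without histidine 16 of 38 were higher (42.1%) and 14 lower (36.8%), beside 39.1% and 38.2% of all genes tested. Without tryptophan 17 of 37 were higher and 17 lower (45.95% each), beside 36.1% and 34.8% of all genes tested. SMPD1, acid sphingomyelinase, rose 6.56-fold and 3.19-fold, IDS, iduronate sulfatase, rose 6.48-fold without histidine, and GAA, acid alpha-glucosidase, rose 2.81-fold without tryptophan. CTSV, a close relative of CTSL, fell 3.60-fold without tryptophan. Among other lysosomal membrane proteins 8 of 16 were higher (50%) and 3 lower (18.75%) without histidine, beside 39.1% and 38.2% of all genes. Without tryptophan 7 were higher (43.75%) and 4 lower (25%), beside 36.1% and 34.8% of all genes. On the log2 scale TPCN2 fell by 1.48 and NPC1 rose by 1.46 without histidine. LAMP3, an inducible relative of LAMP1 and LAMP2, read 2943 and 3159 without tryptophan against 97.8 and 123 in untreated cells (27.5-fold, adjusted p = 1.12e-97) and 57.8 and 66.1 without histidine on the joint scale, a direct difference of -5.63. Of the Rag GTPases and Ragulator subunits, which dock mTORC1 on the lysosome, 5 of 8 were higher and 2 lower without histidine (median 0.37). Without tryptophan 3 of 8 were higher and 3 lower (median -0.030). RRAGC rose 3.68-fold and 1.94-fold and LAMTOR2 fell by 1.31 and 0.47 on the log2 scale. The bar plot of calls by gene list sets these lists beside all genes tested.

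**Figure D5:**
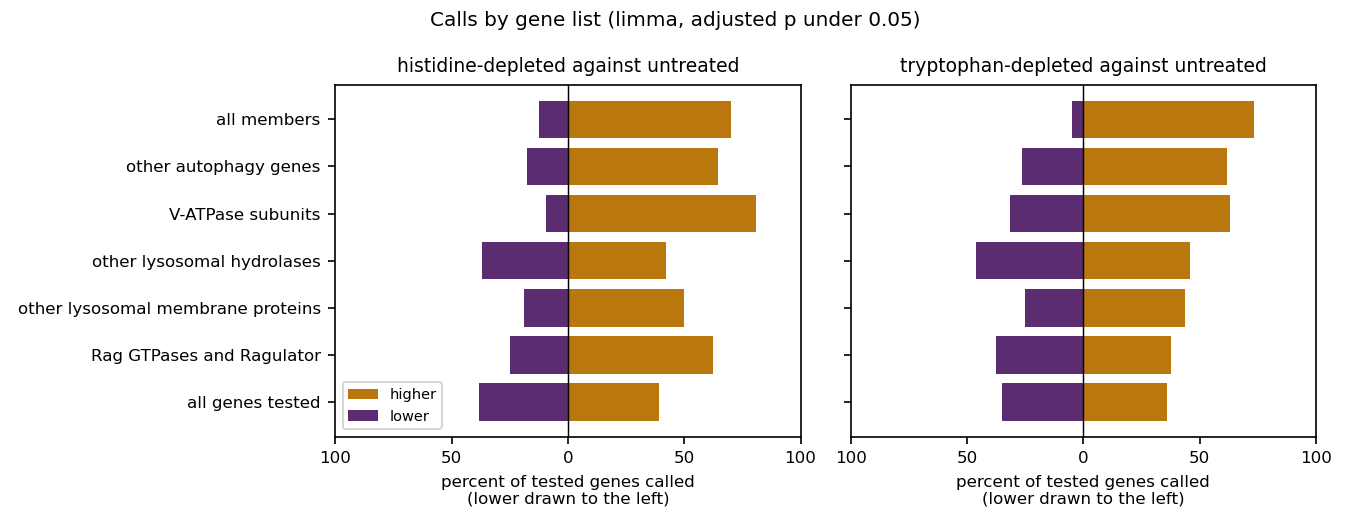
Percent of tested genes called higher (drawn to the right) and lower (drawn to the left) in each list, for histidine depletion and tryptophan depletion against untreated cells (limma, adjusted p under 0.05). The members (70% and 73.2% higher) and the V-ATPase subunits lie to the right of all genes tested (39.1% and 36.1% higher), while the other lysosomal hydrolases lie closer to them (42.1% and 45.95% higher).

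The libraries held 46390819 to 64388876 reads, and the members with the fewest were ULK2, MITF and GABARAP. Replicates differed by more than counting noise, with a chi-square per degree of freedom of 9.90 between the untreated libraries, 4.44 between the Hdepl libraries and 1.93 between the Wdepl libraries. Of 10 colon epithelial markers, 9 had at least 100 reads in each untreated library, and their sum was 429265 to 455690 in untreated, 525718 to 554152 in Hdepl and 606661 to 610006 in Wdepl libraries, while CDX1 was at 0 reads in the Hdepl libraries. Of these 10 markers 4 were called higher and 6 lower without histidine (median log2 fold change -0.32), beside 39.1% and 38.2% of all genes tested. Without tryptophan 5 were higher and 2 lower, beside 36.1% and 34.8%. Of 9 tested between the depletions 2 were higher and 7 lower without histidine, beside 39.9% and 38.4%. Mast cell and leukocyte markers summed to 118 to 141, 55.1 to 65.1 and 369 to 384, with KIT, CPA3 and TPSAB1 at 0 throughout. Of those 8 markers CD14 alone was tested, at 102 and 117 in untreated and 370.0 and 361 in Wdepl libraries (log2 fold change 1.73, and -0.96 without histidine), and it was named after its values were seen. Fibroblast and endothelial markers summed to 114 to 129, 81.3 to 91.6 and 84.3 to 95.2. Their part in the results was not tested.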

How the data were processed

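HT29 cells (untreated, Hdepl and Wdepl, 2 libraries each) were profiled by stranded poly(A) RNA-seq. The authors aligned reads to GRCh38 (STAR 2.7.10a) and ran htseq-count 2.0.5 on gencode exons. The methods name protein-coding genes of an older gencode release, while the tables list 60676 genes of all types, and the exon overlaps given here come from release 44. For each depletion, a table of counts divided by DESeq2 size factors was deposited by the authors (a non-negative signal), per the labels and methods. Use of molecular identifiers and strand in counting is not given in the sources used here. Dividing each value by its library's step returned whole reads, within 0.01 of a read, for 100% of values. The deposited tables were normalized separately, so each depletion was tested within its own table, and the direct comparison used recovered reads scaled by median-of-ratios size factors over all 6 libraries. A fold change on the log2(normalized count + 1) scale understates the change of low genes.

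Tests used limma 3.58.1 (trend on, two-sided) in R 4.3.3 on genes with a mean of at least 10, with Benjamini-Hochberg adjustment over all genes tested and a threshold of 0.05. Tried in place of these were a pseudocount of 0.5 or 8, dropping the filter or raising it to 50, edgeR 4.0.16, DESeq2 1.42.0 on recovered reads, quantile normalization, no trend, all 6 libraries, a replicate block, a fold limit and each library left out. The code was tested on simulated data. Identifiers were matched to gencode 44 (60357 of 60676). Members and lists were chosen with earlier results of these data known. Values in every library are given for members with a called log2 change of at least 1 and for the ATG8, cargo and MiT/TFE groups, and of the context lists genes were named from the 3 largest called changes each; RB1CC1 without histidine was named after its values were seen. Tables were made with pandas 2.3.3 and numpy 2.4.6 in Python 3.11.15, and figures with matplotlib 3.10.9.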

Additional observations from a re-analysis of the deposited data

How the results depend on the processing

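Of 1705 values of single members under an alternative, 1639 kept their direction and side of the threshold. With the direction kept, 31 passed where the reported value did not and 22 no longer passed. The sign changed in 13, and of these ATG3 and LAMP1 without histidine also passed, under quantile normalization, where the reported values did not. The cause was not tested. Without histidine the count of lower members was 9 under quantile normalization and 3 without the variance trend, and with a library left out it was 3 to 8, while the median was 0.50 to 0.67. Quantile normalization reversed ATG3 (-0.089) and LAMP1 (-0.13), and with a library left out ULK1 ran from -0.070 to 0.053. With a log2 fold change of at least 1 required, 15 members were higher (14 without MITF) and 0 lower. Without tryptophan ATG14 was 0.031 and CTSZ -0.046 under quantile normalization, and with a library left out ATG3 ran from -0.0031 to 0.069, WIPI2 from -0.064 to 0.048, ULK2 from -0.17 to 0.63 and the median from 0.39 to 0.47, and the fold limit left 5 higher and 0 lower. Between the depletions the median was 0.22 without the filter, 0.23 with edgeR, 0.24 with DESeq2, 0.22 under quantile normalization and 0.20 to 0.25 with a library left out. With a library left out ATG3 ran there from -0.012 to 0.0044 and GABARAP from -1.10 to 0.18. The fold limit left 10 higher (9 without MITF) and 3 lower. With a library left out, its group's lone sample is assumed to vary like the other group.

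Replicate numbers are not shown to pair the samples, since same-numbered libraries' deviations correlated at 0.117, -0.053 and -0.10 in the 3 group pairs. With a replicate block 29 members were higher and 6 lower without histidine, 30 and 2 without tryptophan, and 23 and 13 between the depletions. MITF is counted there without histidine and between the depletions. Groups of 2 libraries limit the spread that can be seen, and for GABARAP, ULK2 and MITF in untreated cells the low read counts do.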
